A study of Mus musculus with 12 samples.

Results

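A set of 9 genes of megakaryocytes and platelets was followed through 12 RNA-sequencing libraries of transduced mouse bone marrow cells. They were taken by symbol: Selp, F2r, Gp1ba, Gp1bb, Gp9, Itga2b, Itgb3, Pf4 and Vwf. All 9 were present in each of the 3 deposited tables, among 22339 symbols that the tables share. PRDM16 is a DNA-binding protein of the PR domain family; the series title calls it a histone methyltransferase and places it in tumor suppression. Both cotransductions, 1 with MLL-AF9 and 1 with E2A-HLF, started from lineage-negative bone marrow cells of C57BL/6 mice, which received the fusion oncogene together with PRDM16 or with PRDM16mut. These cells went through 10 days of G418 and puromycin. The MLL-AF9 stable cells were marrow cells that already carried that fusion when PRDM16 or PRDM16mut was added, followed by 10 days of puromycin. The cotransductions are called MLL-AF9 and E2A-HLF below, and the third experiment the stable cells. The medium held SCF, IL6 and IL3, each at 10 ng/ml, and thrombopoietin is not among the listed cytokines. Each of the 6 groups had 2 libraries. Every group carries a fusion oncogene and 1 form of PRDM16, and no group without either form was analysed here. The labels do not say what PRDM16mut lacks, nor whether the 2 libraries of a group were separate cultures.

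A megakaryocyte is the large bone marrow cell that sheds platelets. Platelets stick to damaged vessels through von Willebrand factor, which is caught by the GPIb-IX-V complex, and to each other through fibrinogen, which is bound by the integrin alpha-IIb beta-3. Their alpha granules hold P-selectin, von Willebrand factor and platelet factor 4, and thrombin activates them through protease-activated receptors. Several of these genes are also used elsewhere: Itga2b (CD41) marks early blood progenitors and mast cells, Vwf and Selp are made by endothelium, and F2r by many cell types.

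Levels are given in FPKM, read fragments corrected for transcript length and for the mapped total, which allows genes to be set side by side. Changes are on the log2(FPKM + 1) scale, PRDM16 minus PRDM16mut, with a standard error from limma and a Benjamini-Hochberg adjusted p over all genes tested in the table. Genes were tested if at least 2 of the 4 libraries of a table reached an FPKM of 1. The total depth is unknown, and the scale understates changes of low genes. Prdm16 itself measured 83.9 and 119 FPKM with PRDM16 against 29.5 and 30.1 with PRDM16mut under MLL-AF9. The 2 forms gave 49.2 and 56.6 against 56.6 and 43.5 FPKM under E2A-HLF, and 77.9 and 79.95 against 89.1 and 94.6 in the stable cells. Prdm16 was called higher with PRDM16 under MLL-AF9 (limma, adjusted p = 4.18e-04) and lower in the stable cells (limma, adjusted p = 0.0414). Low values of the 2 PRDM16 libraries under MLL-AF9 put the second at 1.63 times the depth of the first, while the other groups had ratios of 0.92 to 1.18.

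Of the 9 members, 8 reached 1 FPKM in each PRDM16 library and 6 in each PRDM16mut library under MLL-AF9, and 6 in every library under E2A-HLF, whereas 1 or 2 did in each stable cell library. Their summed level was 177 and 184 FPKM with PRDM16, against 125 and 121 with PRDM16mut under MLL-AF9. Under E2A-HLF the sums were 384 and 374 FPKM against 379 and 409.9, so the sums overlapped. In the stable cells they were 5.85 and 5.53 FPKM against 4.43 and 4.81. The tables were made separately, so levels set across them are descriptions without a test. In bulk libraries such as these, fewer cells of a type and less RNA per cell cannot be told apart.

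**Figure D1:**
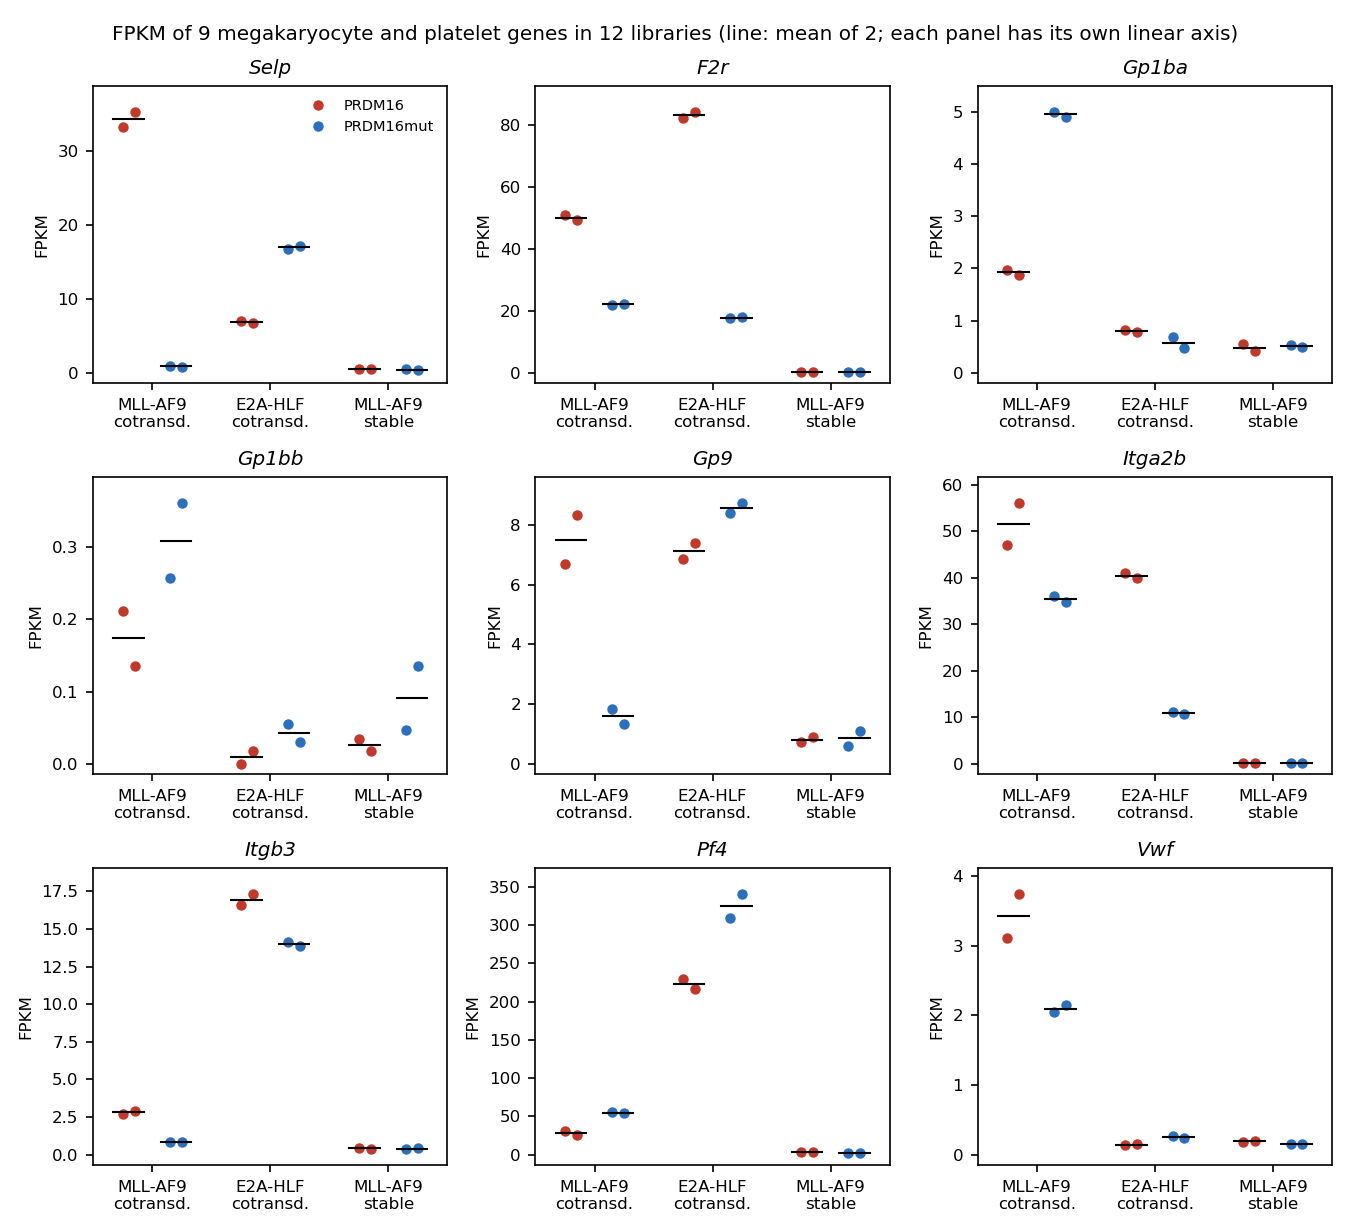
FPKM of each member in each library, with PRDM16 left of PRDM16mut within each experiment; points are libraries, the line is the mean of 2, and each panel has its own linear axis from 0. Selp stands at 33.3 and 35.3 FPKM with PRDM16 under MLL-AF9 against 0.952 and 0.804 with PRDM16mut, and the order is the other way round under E2A-HLF.

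The test was passed by 8 of 8 members tested under MLL-AF9, 6 higher and 2 lower with PRDM16, where 69.5% of all genes passed, 35.6% higher and 34% lower. Selp and Itgb3 entered the test only because their PRDM16 libraries were above the filter, so the count of 8 is no support in itself. Under E2A-HLF 6 of 6 tested members passed, 3 higher and 3 lower, where 43.8% of all genes passed, 22.7% higher and 21.1% lower. Within the stable cells 1 of 1 passed, Pf4, where 6.36% of all genes passed, 4.2% higher and 2.16% lower. Libraries of the 2 forms were fully separated for 8 of 8, 6 of 6 and 1 of 1 tested members, in the same order. Under MLL-AF9, under E2A-HLF and in the stable cells this held for 86.3%, 73.7% and 60.6% of all genes tested. Counting members under the filter, 9, 9 and 4 of the 9 were separated. The share over all genes without the filter was not computed, so these counts are no result about the members. Without a filter on low values the calls were 8, 6 and 0 of 9 members, beside 51.6%, 30% and 0.245% of all genes. Vwf (limma, adjusted p = 0.0161) then replaced Gp9 under E2A-HLF. With Selp and Itgb3 included, the median log2 change of the tested members was 0.79 under MLL-AF9, so it too is no support in itself. The median under E2A-HLF was 0.01, and that over all genes was 0.01 in both cotransductions. The direction was therefore mixed: F2r, Itga2b and Itgb3 rose and Pf4 fell in both cotransductions, while Selp and Gp9 rose in the first and fell in the second.

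Itga2b and Itgb3 encode the 2 chains of the platelet fibrinogen receptor. Itga2b, the alpha-IIb chain, was at 47.1 and 56.0 FPKM with PRDM16, against 36.0 and 34.7 with PRDM16mut under MLL-AF9. It was at 40.9 and 40.0 FPKM with PRDM16, against 10.99 and 10.7 with PRDM16mut under E2A-HLF. The PRDM16 libraries were the higher ones in both experiments, with no overlap, which held for 86.3% and 73.7% of all genes. The change was 0.53 ± 0.0919 (SE, 2 libraries a group; limma, adjusted p = 0.00431) in the first and 1.81 ± 0.0438 (limma, adjusted p = 2.97e-06) in the second. The effects differed by -1.28 ± 0.104 (SE), MLL-AF9 minus E2A-HLF, in a test over all 12 libraries (limma, adjusted p = 3.01e-06), so the rise was the smaller one under MLL-AF9. In the stable cells Itga2b was at 0.104 and 0.159 FPKM with PRDM16, against 0.182 and 0.122 with PRDM16mut, too low to be tested.

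Itgb3, the beta-3 chain that also pairs with the alpha-V chain, was at 2.70 and 2.91 FPKM with PRDM16, against 0.849 and 0.812 with PRDM16mut under MLL-AF9. Under E2A-HLF it was at 16.6 and 17.3 FPKM against 14.2 and 13.9. It rose by 1.05 ± 0.0645 in the first (limma, adjusted p = 9.27e-05) and by 0.26 ± 0.0475 in the second (limma, adjusted p = 0.00723). The effects differed by 0.80 ± 0.0791, MLL-AF9 minus E2A-HLF (limma, adjusted p = 1.25e-05), the opposite of Itga2b. Its 4 values in the stable cells lay between 0.340 and 0.466 FPKM, and the groups overlapped. Itgav, the alpha-V chain, was called in none of the 3 tables, at 5.59 ± 0.269 against 5.24 ± 0.0384 FPKM (SD, n = 2) under MLL-AF9 (limma, adjusted p = 0.306), with adjusted p of 0.713 under E2A-HLF and 0.472 in the stable cells.

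The balance of the 2 integrin chains differed between the groups. Under MLL-AF9 the FPKM of Itga2b was 17.5 and 19.2 times that of Itgb3 with PRDM16, against 42.4 and 42.8 times with PRDM16mut. Under E2A-HLF it was 2.47 and 2.31 times with PRDM16, against 0.777 and 0.772 times with PRDM16mut, so that the beta-3 chain was the more abundant transcript only in the 2 PRDM16mut libraries among those 8. The ratio was lower with PRDM16 in the first experiment and higher with it in the second, without overlap between groups in either; these ratios are descriptions without a test.

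**Figure D2:**
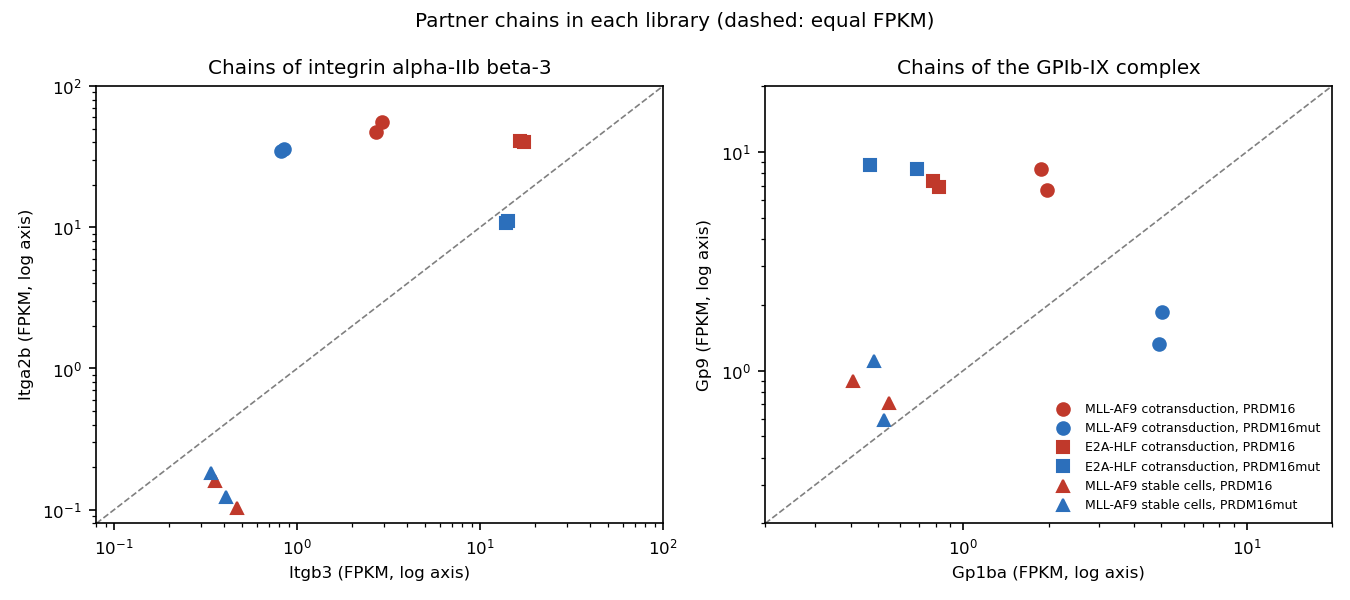
FPKM of partner chains in each of the 12 libraries on log axes, Itga2b against Itgb3 and Gp9 against Gp1ba; symbols mark the experiment, red is PRDM16, blue is PRDM16mut, and the dashed line is equal FPKM. Under MLL-AF9 the PRDM16mut libraries lie below the line for Gp9 and Gp1ba, at 0.368 and 0.268 times, and the PRDM16 libraries above it, at 3.39 and 4.44 times.

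The GPIb-IX complex takes up von Willebrand factor through its ligand-binding chain Gp1ba, which is linked to Gp1bb and held with Gp9. These 3 chains did not move together. Gp1ba was at 1.97 and 1.88 FPKM with PRDM16, against 5.01 and 4.92 with PRDM16mut under MLL-AF9, a change of -1.03 ± 0.0600 (limma, adjusted p = 7.90e-05). Gp9 was at 6.69 and 8.33 FPKM with PRDM16, against 1.84 and 1.32 with PRDM16mut, a change of 1.72 ± 0.138 (limma, adjusted p = 2.35e-04). The groups did not overlap for either gene, and the 2 chains of 1 complex went in opposite directions.

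Under E2A-HLF Gp9 was at 6.87 and 7.39 FPKM with PRDM16, against 8.39 and 8.73 with PRDM16mut, a change of -0.23 ± 0.0582 (limma, adjusted p = 0.0213). This small fall did not pass without PRDM16 replicate 1 (limma, adjusted p = 0.0892), PRDM16mut replicate 1 (limma, adjusted p = 0.0522) or PRDM16mut replicate 2 (limma, adjusted p = 0.104), nor without a filter on low values (limma, adjusted p = 0.0509). Gp1ba stayed under the filter there, at 0.818 and 0.780 FPKM against 0.686 and 0.469. The effects of the 2 experiments differed by 1.96 ± 0.207 for Gp9 (limma, adjusted p = 1.98e-05) and by -1.22 ± 0.0994 for Gp1ba (limma, adjusted p = 3.01e-06), MLL-AF9 minus E2A-HLF.

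Gp1bb, the chain bound to Gp1ba by a disulfide bond, was nearly absent from all 12 libraries and was tested in none of the 3 tables. Its highest values were 0.257 and 0.361 FPKM, with PRDM16mut under MLL-AF9, against 0.211 and 0.136 with PRDM16. Under E2A-HLF it was at 0 and 0.0173 FPKM against 0.0551 and 0.0296. The gene overlaps Septin5 in the RefSeq annotation, so reads of the 2 genes may be assigned to either. Gp5, the chain that completes GPIb-IX-V, was measured beside them. It rose under MLL-AF9, at 4.05 ± 0.587 against 1.07 ± 0.0439 FPKM (SD, n = 2; limma, adjusted p = 1.77e-04). Under E2A-HLF Gp5 was at 1.31 ± 0.0113 against 0.646 ± 0.0867 FPKM (limma, adjusted p = 0.0032). It was tested there only because its PRDM16 libraries reached the filter, which fixed its direction.

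Because Gp9 and Gp1ba moved apart, the 250 bases before their RefSeq start sites are shown, with capitals for GATAA (bound by GATA factors) and GGAAG (bound by ETS factors), read on both strands. These sequences are from RefSeq, build GRCm38.p6, and run 5′ to 3′ along the gene.
Gp9, chr6:87777820-87778069, plus strand: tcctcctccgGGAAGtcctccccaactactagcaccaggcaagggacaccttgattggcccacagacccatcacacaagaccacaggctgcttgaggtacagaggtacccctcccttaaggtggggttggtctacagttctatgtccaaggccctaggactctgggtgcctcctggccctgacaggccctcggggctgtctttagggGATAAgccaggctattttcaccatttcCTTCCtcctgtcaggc
Gp1ba, chr11:70638872-70639121, plus strand: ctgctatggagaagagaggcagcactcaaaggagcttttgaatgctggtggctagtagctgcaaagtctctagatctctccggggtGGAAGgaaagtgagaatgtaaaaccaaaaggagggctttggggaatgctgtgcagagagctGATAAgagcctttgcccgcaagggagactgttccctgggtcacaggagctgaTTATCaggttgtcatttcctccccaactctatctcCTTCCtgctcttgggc
GATAA occurs 1 time in the Gp9 window and 2 times in that of Gp1ba, and GGAAG 2 times in each. GATAA is found in 22.6% and GGAAG in 64.1% of all 32851 mouse promoter windows of this length, so both windows hold common motifs. AATCAC, a core of Gfi1 and Gfi1b sites, occurs in 9.14% of windows and in neither of these.

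Selp encodes P-selectin, the alpha granule protein that reaches the surface of activated platelets and binds Selplg on leukocytes. With 33.3 and 35.3 FPKM in PRDM16 libraries and 0.952 and 0.804 in PRDM16mut libraries of the MLL-AF9 cotransduction, its mean level was 39.0 times higher with PRDM16. The change was 4.23 ± 0.0705 (limma, adjusted p = 2.10e-06), rank 86 by size among 11071 genes tested. Under E2A-HLF it was at 7.02 and 6.78 FPKM with PRDM16, against 16.7 and 17.2 with PRDM16mut, a change of -1.18 ± 0.0492 (limma, adjusted p = 1.92e-05). P-selectin was therefore highest in PRDM16 cells under MLL-AF9 and in PRDM16mut cells under E2A-HLF, and the effects differed by 5.42 ± 0.0858 (limma, adjusted p = 5.38e-11). P-selectin in stable cells was at 0.524 and 0.542 FPKM against 0.444 and 0.317, below the filter.

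Selp lies beside F5 on chromosome 1. F5, coagulation factor V, rose under MLL-AF9, at 9.03 ± 0.277 against 3.79 ± 0.0301 FPKM (SD, n = 2; limma, adjusted p = 6.69e-05), and was at 0.544 and 0.717 FPKM against 0.360 and 0.402 under E2A-HLF. Sele, the endothelial selectin nearby, did not exceed 0.0705 FPKM in any library.

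Most like Selp over the 12 libraries, by the root mean square difference of centred log2(FPKM + 1) values among 11464 candidates, were Epdr1 (0.23), Rras2 (0.32) and Mfge8 (0.37), beside 1.83 for Selp against its own mean. Mfge8, a secreted protein that marks dying cells for uptake, averaged 99.8 FPKM with PRDM16 and 7.44 with PRDM16mut under MLL-AF9. It averaged 23.4 FPKM with PRDM16 and 33.96 with PRDM16mut under E2A-HLF.

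The promoter of Selp is shown because its gene gave the largest change of the 9 members and changed sign between experiments, with the same motifs in capitals.
Selp, chr1:164115014-164115263, plus strand: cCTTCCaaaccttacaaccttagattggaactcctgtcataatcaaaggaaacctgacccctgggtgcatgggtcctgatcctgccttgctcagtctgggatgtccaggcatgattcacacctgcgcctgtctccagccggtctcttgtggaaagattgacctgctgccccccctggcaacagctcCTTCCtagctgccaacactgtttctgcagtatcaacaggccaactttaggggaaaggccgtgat
The Selp window holds GGAAG 2 times, both on the strand opposite to the gene, and neither GATAA nor AATCAC.

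F2r encodes PAR1, a receptor that thrombin cuts to switch on. Human platelets use it, whereas mouse platelets respond to thrombin through PAR3 (F2rl2) and PAR4 (F2rl3). F2r was at 50.7 and 49.1 FPKM with PRDM16, against 21.8 and 22.2 with PRDM16mut under MLL-AF9. It was at 82.0 and 84.1 FPKM with PRDM16, against 17.5 and 17.8 with PRDM16mut under E2A-HLF. The PRDM16mut libraries of both experiments were near 20, and the PRDM16 libraries of the E2A-HLF cotransduction stood highest. The changes were 1.15 ± 0.0521 (limma, adjusted p = 3.59e-05) and 2.17 ± 0.0415 (limma, adjusted p = 1.42e-06), and they differed by -1.03 ± 0.0621, MLL-AF9 minus E2A-HLF (limma, adjusted p = 3.60e-07). F2r in stable cells was at 0.166 and 0.125 FPKM against 0.161 and 0.231, and the groups overlapped.

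The related receptors did not copy F2r. F2rl2, which lies near F2r on chromosome 13, was at 2.13 and 2.06 FPKM against 3.55 and 3.79 under MLL-AF9, a change of -0.59 ± 0.0631 (limma, adjusted p = 6.52e-04). It was at 13.5 and 13.4 FPKM against 0.769 and 0.871 under E2A-HLF, a change of 2.99 ± 0.0599 (limma, adjusted p = 1.57e-06). F2rl2 was tested there only through its PRDM16 libraries, so higher was the only direction open to it. F2rl3 rose slightly in the first, by 0.31 ± 0.0989 (limma, adjusted p = 0.0361), and fell in the second, by 0.68 ± 0.0555 (limma, adjusted p = 2.75e-04). F2rl1, which lies beside F2r, stayed at or under 0.119 FPKM in all libraries. F2rl2 in stable cells was at 5.77 and 5.70 FPKM against 5.32 and 6.05, where F2r was almost absent.

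Because Itga2b and F2r rose together in both cotransductions, their promoter windows are shown with the same motifs in capitals.
Itga2b, chr11:102469884-102470133, minus strand: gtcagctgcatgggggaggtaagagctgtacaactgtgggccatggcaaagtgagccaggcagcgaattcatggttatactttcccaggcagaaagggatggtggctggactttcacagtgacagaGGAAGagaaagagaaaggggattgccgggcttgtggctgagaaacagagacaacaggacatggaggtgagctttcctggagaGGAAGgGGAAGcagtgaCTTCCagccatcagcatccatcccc
F2r, chr13:95618467-95618716, minus strand: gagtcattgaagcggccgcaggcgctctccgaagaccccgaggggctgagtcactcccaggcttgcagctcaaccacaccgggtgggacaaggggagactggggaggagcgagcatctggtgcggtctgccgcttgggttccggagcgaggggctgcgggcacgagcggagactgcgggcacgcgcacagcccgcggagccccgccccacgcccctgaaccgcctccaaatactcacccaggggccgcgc
Itga2b holds GGAAG 4 times, all within 124 bases of the start, and the F2r window holds none of the 3 motifs. The genes most like Itga2b over the 12 libraries were Perp (0.41), Tarm1 (0.45) and F2r itself (0.54), beside 2.35 for Itga2b against its own mean. Perp, a membrane protein induced by p53, averaged 54.4 FPKM with PRDM16 and 18.0 with PRDM16mut under MLL-AF9, and 44.1 and 7.10 under E2A-HLF. All 4 genes averaged under 1 FPKM in the stable cells.

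Pf4, platelet factor 4, is a chemokine stored in alpha granules, and it was the most abundant member in 10 of the 12 libraries. It was at 30.8 and 26.3 FPKM with PRDM16, against 55.96 and 53.8 with PRDM16mut under MLL-AF9. It was at 229.8 and 217 FPKM with PRDM16, against 309.9 and 341 with PRDM16mut under E2A-HLF. The PRDM16mut libraries were the higher ones in both, with changes of -0.92 ± 0.0866 (limma, adjusted p = 4.09e-04) and -0.54 ± 0.0652 (limma, adjusted p = 0.00132). The effects differed by -0.38 ± 0.107, MLL-AF9 minus E2A-HLF (limma, adjusted p = 0.00831), and Pf4 was the single member that passed the filter in all 3 tables.

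In the stable cells Pf4 was at 3.12 and 2.84 FPKM with PRDM16, against 1.99 and 1.84 with PRDM16mut. It rose there, by 0.45 ± 0.0637 (limma, adjusted p = 0.0283), opposite to both cotransductions, and ranked 169 by size among 10580 genes. The differences of effect were -1.37 ± 0.107 for the MLL-AF9 cotransduction minus the stable cells (limma, adjusted p = 1.76e-06) and -0.99 ± 0.107 for the E2A-HLF cotransduction minus the stable cells (limma, adjusted p = 5.55e-05). The call within the stable cells was lost without any 1 of the 4 libraries (limma, adjusted p from 0.0799 to 0.151) and without a filter on low values (limma, adjusted p = 0.102).

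Ppbp, the neighbouring chemokine gene of platelets, was the gene most like Pf4 over the 12 libraries, with a root mean square difference of 0.52 beside 2.61 for Pf4 against its own mean. Unlike Pf4, it changed in opposite directions in the cotransductions. It fell under MLL-AF9, at 16.3 ± 0.551 against 21.5 ± 0.605 FPKM (SD, n = 2; limma, adjusted p = 0.00251), and rose under E2A-HLF, at 280.2 ± 11.6 against 238 ± 12.3 FPKM (limma, adjusted p = 0.0238). The next genes were Ly6a (0.70) and Ddx3y (0.85). Ddx3y lies on the Y chromosome and measured 8.68 to 24.8 FPKM in the cotransductions and 0.0190 to 0.0297 in the stable cells, while Xist, made from an inactive X, was at 0.0163 to 0.0641 FPKM in the cotransductions and 46.5 to 60.9 FPKM in the stable cells. The sex of the donor mice is not given in the labels, and the source of the cells, the experiment and the table cannot be told apart when levels are set across experiments.

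Vwf encodes von Willebrand factor, carried in alpha granules and in endothelium. It was at 3.11 and 3.74 FPKM with PRDM16, against 2.05 and 2.14 with PRDM16mut under MLL-AF9, a rise of 0.51 ± 0.0871 (limma, adjusted p = 0.00386). Under E2A-HLF it was at 0.135 and 0.147 FPKM against 0.264 and 0.240, under the filter. Its groups did not overlap there, which held for 73.7% of the genes that passed the filter. The effects differed by 0.65 ± 0.0884 (limma, adjusted p = 1.20e-04). Vwf was thus mainly a transcript of the MLL-AF9 cotransduction, since the stable cells held 0.183 and 0.193 FPKM against 0.151 and 0.157.

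The change from PRDM16mut to PRDM16 differed between the cotransductions for each member tested there, as it did for most genes. Gp1ba and Vwf were under the filter under E2A-HLF, so their differences mostly restate the effect under MLL-AF9. Prdm16 itself was called higher with PRDM16 under MLL-AF9 and was not called under E2A-HLF. Its part in these differences was not tested. Over genes that passed in at least 1 of the 2 tables, a choice made after seeing the data, 8 of 8 members differed between MLL-AF9 and E2A-HLF, where 73.1% of all genes did. Between MLL-AF9 and the stable cells 8 of 8 differed, beside 65.8%, and between E2A-HLF and the stable cells 4 of 6, beside 39.8%. All members but Pf4 were under the filter in the stable cells, so these counts mostly restate the effects in the cotransductions. Selp and Itgb3 entered the comparison of MLL-AF9 with the stable cells only through PRDM16 libraries. Its count of 8 is therefore no support in itself. Over genes that passed in every table, which left Pf4, the shares of all genes were 71.4%, 64% and 37%.

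**Figure D3:**
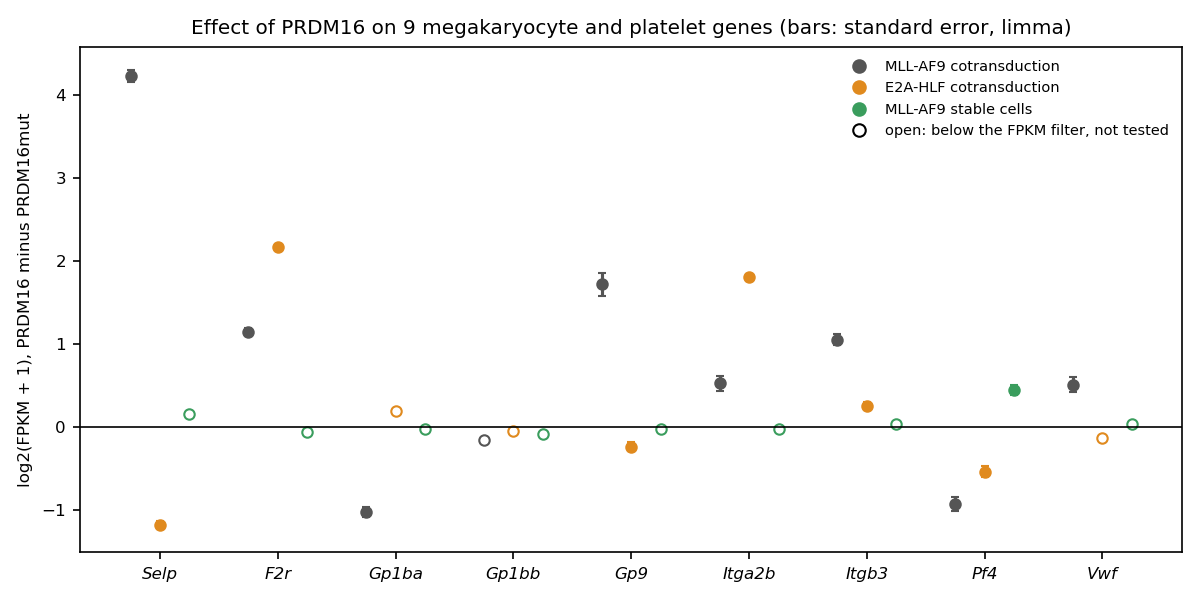
Change of each member on the log2(FPKM + 1) scale, PRDM16 minus PRDM16mut, in the 3 experiments; bars are standard errors from limma and open points were under the filter and not tested. Selp reaches 4.23 under MLL-AF9 and -1.18 under E2A-HLF, and the points of the stable cells lie close to 0 apart from Pf4 at 0.45.

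Within a group the order of the members differed between experiments. In PRDM16 cells of the MLL-AF9 cotransduction Itga2b (51.6 ± 6.33 FPKM, SD, n = 2) and F2r (49.9 ± 1.12) led and overlapped. Selp (34.3 ± 1.39) and Pf4 (28.5 ± 3.23) followed, and below them came Gp9, Vwf, Itgb3, Gp1ba and Gp1bb. With PRDM16mut the order was Pf4 (54.9 ± 1.52), Itga2b (35.4 ± 0.921), F2r (22.0 ± 0.279) and Gp1ba (4.96 ± 0.0631), with no overlap between these neighbours, and Selp and Itgb3 stood at 0.878 ± 0.104 and 0.830 ± 0.0259 FPKM, which overlapped. Under E2A-HLF Pf4 led in both groups, with 59.8% and 58.1% of the members' summed FPKM with PRDM16 and 81.8% and 83.2% with PRDM16mut. F2r, Itga2b and Itgb3 came next with PRDM16, whereas F2r, Selp and Itgb3 came next with PRDM16mut, none of these neighbours overlapping. Within the stable cells Pf4 led and all other members averaged under 1 FPKM.

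Other genes of the lineage were read from 6 lists chosen by role. Over all genes tested, 69.5% passed under MLL-AF9, 43.8% under E2A-HLF and 6.36% in the stable cells. List counts near these shares are no result about the lineage. Some list genes reached the filter in only 1 of the 2 groups, such as Cd36 and Fn1 under MLL-AF9, which fixed their direction. Among 20 other platelet surface receptors, 11 were tested under MLL-AF9, 9 higher and 2 lower, with a median change of 0.36 beside 0.01 over all genes. Under E2A-HLF 5 of 13 were higher and 8 lower (median -0.27). Cd9, a tetraspanin whose gene lies next to Vwf, was at 269 and 268 FPKM against 84.2 and 83.5 under MLL-AF9 (limma, adjusted p = 8.30e-06). Cd36, a thrombospondin receptor, was at 3.41 and 3.47 FPKM against 0.520 and 0.421 (limma, adjusted p = 2.72e-05). Tbxa2r, the thromboxane receptor, was at 3.50 and 2.77 FPKM against 11.3 and 11.9 under E2A-HLF, a change of -1.61 ± 0.0933 (limma, adjusted p = 6.83e-05). Pear1, a platelet contact receptor, fell there by 0.75 ± 0.0553 (limma, adjusted p = 1.76e-04). In the stable cells 2 of 7 rose, Cd9 (0.33; limma, adjusted p = 0.0222) and Itga6, the alpha-6 integrin chain (0.18; limma, adjusted p = 0.0467).

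Several defining platelet genes, picked by role after their values were seen, stayed near 0 in all 12 libraries. Others did not. Among the 20 other surface receptors, 8 were under 1 FPKM in all 4 libraries under MLL-AF9, 6 under E2A-HLF and 13 in the stable cells. Among the 17 other alpha granule and secreted proteins the numbers were 6, 7 and 8. Gp6, the collagen receptor, did not exceed 0.0642 FPKM, Tubb1, the platelet beta-tubulin, 0.214, and Treml1, an alpha granule receptor, 0.0847. Itga2b, Pf4 and F2r were therefore measured at over 10 FPKM in cotransduced cells where Gp1bb, Gp6 and Tubb1 measured under 1 FPKM. Reads of Gp1bb may have been assigned to the overlapping Septin5.

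Of 17 other alpha granule and secreted proteins, 2 were higher and 6 lower of 11 tested under MLL-AF9 (median -0.38), 6 higher and 3 lower among 10 tested under E2A-HLF (median 0.33), and 2 higher and 1 lower among 9 tested in the stable cells (median 0.04). F13a1, the clotting factor XIII A chain, which monocytes also make, was at 2.60 and 2.68 FPKM against 24.5 and 25.1 under MLL-AF9. It was at 98.87 and 98.8 FPKM against 66.2 and 67.7 in the stable cells, a rise of 0.56 ± 0.0282 (limma, adjusted p = 0.00172). Thbs1, thrombospondin 1, rose under E2A-HLF, at 58.2 and 62.1 FPKM against 16.6 and 15.4 (limma, adjusted p = 6.17e-06), and in the stable cells by 0.25 ± 0.0286 (limma, adjusted p = 0.0169). Clu and Serpine2 fell under MLL-AF9 by 2.12 and 1.30 (limma, adjusted p = 8.58e-06 and 6.00e-05). Serpine2 was tested there only through its PRDM16mut libraries, which fixed its direction. Under E2A-HLF Timp3 fell by 1.30 and the granule proteoglycan Srgn rose by 0.97 (limma, adjusted p = 3.63e-05 and 2.52e-04). Nbeal2, needed for alpha granules, fell in the stable cells by 0.24 (limma, adjusted p = 0.0471).

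The list of dense granule, prostanoid and signalling genes had 5 higher and 7 lower among 18 tested under MLL-AF9 (median -0.08), 9 higher and 2 lower among 17 tested under E2A-HLF (median 0.17) and 2 higher and 1 lower among 16 tested in the stable cells (median -0.02). Ptgs1, the cyclooxygenase of platelets, was at 20.7 and 20.4 FPKM against 129.5 and 128 under MLL-AF9 (limma, adjusted p = 2.86e-06). Rasgrp2, which turns on Rap1 for integrin activation, was at 6.36 and 6.99 FPKM against 48.8 and 47.7 (limma, adjusted p = 5.31e-06), and the adaptor Fyb rose by 1.53 (limma, adjusted p = 1.61e-05). In that experiment, then, Itga2b and Itgb3 rose while Rasgrp2 fell. Fermt3, Tln1 and Rap1b of the same list were not called there (limma, adjusted p = 0.772, 0.552 and 0.118). Apbb1ip changed by -0.21 (limma, adjusted p = 0.0248). Under E2A-HLF the platelet kinase substrate Plek rose by 1.70, Rgs18 by 1.31 and the adaptor Lcp2 by 0.89 (limma, adjusted p = 2.79e-06, 1.16e-05 and 3.14e-05). Among stable cells Plek and Rap1b rose by 0.46 and 0.17 and Plcg2 fell by 0.19 (limma, adjusted p = 0.0167, 0.0378 and 0.0453).

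Of 11 genes of the platelet cytoskeleton, 3 were higher and 5 lower of 9 under MLL-AF9, with a median of -0.26. Under E2A-HLF 4 were higher and 2 lower of 8 (median 0.25), and in the stable cells 1 higher and 2 lower among 8 tested (median -0.12). Pdlim1 and Bin2 rose in the first by 1.77 and 0.69, and Vcl, vinculin, fell by 1.23 (limma, adjusted p = 1.95e-05, 2.08e-04 and 2.76e-05). Tuba8, an alpha-tubulin, Myh9, the non-muscle myosin of platelets, and Vcl rose in the second by 2.26, 1.01 and 0.53 (limma, adjusted p = 2.97e-06, 4.09e-04 and 4.70e-04). Among stable cells Tpm4 rose by 0.17 and Pdlim1 and Tuba8 fell by 0.37 and 0.26 (limma, adjusted p = 0.038, 0.0104 and 0.0468).

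**Figure D4:**
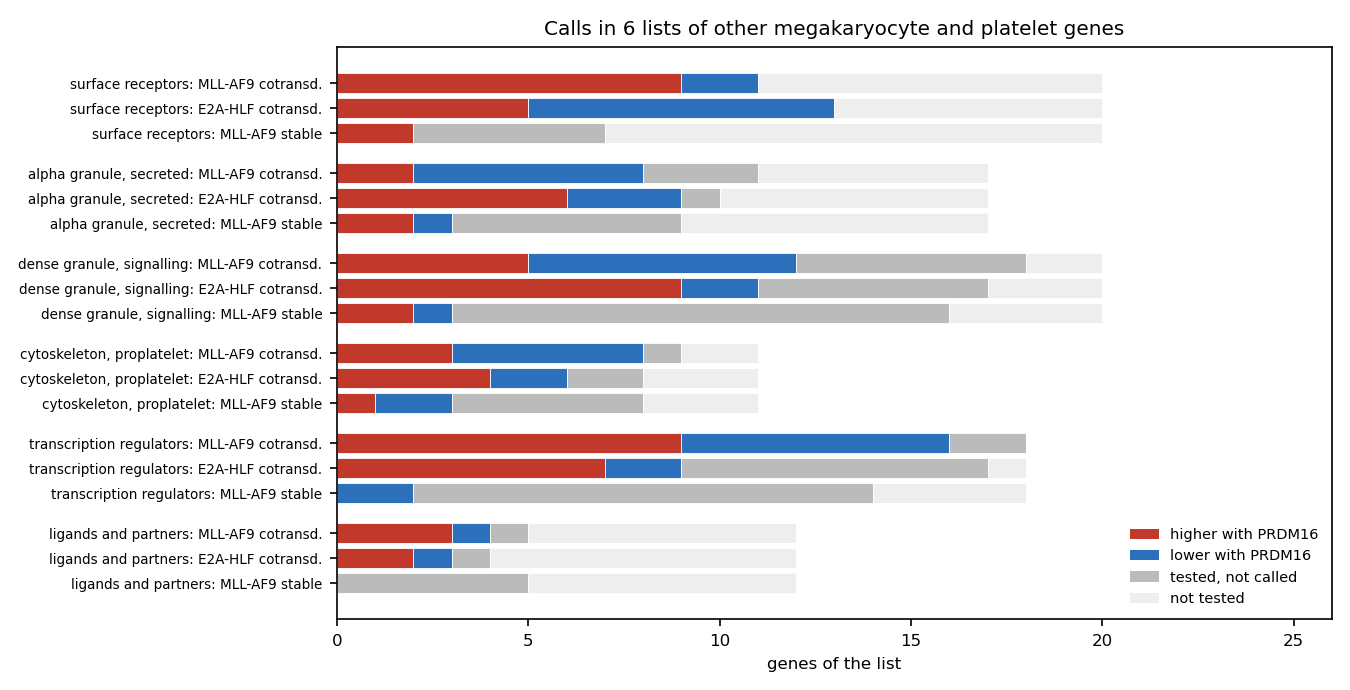
Number of genes of each list that were higher with PRDM16, lower, tested without a call or not tested, in the 3 experiments. The surface receptors are mostly higher under MLL-AF9, 9 of 11 tested, and mostly lower under E2A-HLF, 8 of 13. Over all genes tested, 35.6% were higher under MLL-AF9 and 21.1% lower under E2A-HLF.

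The 18 transcription regulators of the lineage were mostly expressed, with 9 higher and 7 lower among 18 tested under MLL-AF9 (median 0.20), 7 higher and 2 lower among 17 tested under E2A-HLF (median 0.16) and 0 higher and 2 lower among 14 tested in the stable cells (median -0.08). Gata2 was at 95.4 and 104 FPKM against 31.1 and 31.5 and Tal1 at 36.1 and 36.5 against 9.76 and 9.31 in the first (limma, adjusted p = 2.11e-05 and 1.06e-05). Ets1 was at 1.02 and 1.09 FPKM against 22.0 and 21.9 there (limma, adjusted p = 2.10e-06). In the second, Gfi1b, Runx1 and Mafg rose by 1.03, 0.65 and 0.57 (limma, adjusted p = 3.26e-05, 2.09e-04 and 2.31e-04). Among stable cells Mafk and Ets1 fell by 0.20 and 0.21 (limma, adjusted p = 0.0415 and 0.045). Gata1, the master regulator of erythroid cells and megakaryocytes, did not exceed 0.174 FPKM in the stable cells and was at 18.3 and 19.7 FPKM against 10.4 and 10.7 under MLL-AF9 and 7.02 and 6.80 against 4.69 and 5.31 under E2A-HLF. Nfe2, needed for platelet release, was at 80.99 to 92.3 FPKM in the stable cells.

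Of the 12 ligands and partners, 3 were higher and 1 lower of 5 tested under MLL-AF9 (median 0.38), 2 higher and 1 lower among 4 tested under E2A-HLF (median 0.22) and 0 of 5 in the stable cells (median 0.10). Cd24a, a P-selectin ligand on mouse cells, was at 498 and 457 FPKM against 155 and 154 in the first and at 139 and 134 against 273 and 285 in the second (limma, adjusted p = 1.83e-05 and 3.26e-05). Cd24a and Selp thus moved in the same direction in each cotransduction. Selplg, the main P-selectin ligand, rose in both, by 0.38 in the first and 0.39 in the second (limma, adjusted p = 0.0133 and 0.00126). Fn1, fibronectin, was at 0.109 and 0.151 FPKM against 5.78 and 5.99 in the first (limma, adjusted p = 5.31e-06), and F2, prothrombin, did not exceed 0.0116 FPKM anywhere.

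Markers of other cells that use these genes moved as well, where 69.5% and 43.8% of all genes passed under MLL-AF9 and under E2A-HLF. The summed FPKM of 13 endothelial markers was 79.1 to 85.2 with PRDM16 against 42.6 to 43.7 with PRDM16mut under MLL-AF9, where 5 of 6 tested were higher, and 222 to 226 against 259 to 259.9 under E2A-HLF, with 1 higher and 2 lower among 3 tested. Pecam1 held most of the first sum, at 61.0 and 64.8 FPKM against 32.0 and 32.6, and Tie1 and Tek rose there to 3.99 ± 0.581 and 1.40 ± 0.176 FPKM, against 0.671 ± 0.0790 and 0.0284 ± 0.0187 (SD, n = 2). Under MLL-AF9 Tie1, Tek and Plvap were tested only because their PRDM16 libraries reached the filter. The count of 5 is therefore no support in itself. Under E2A-HLF Pecam1 rose by 0.75, and Egfl7 and Eng fell by 1.44 and 0.66. The vessel markers Emcn and Cldn5 were listed at 0 in all 12 libraries, and Cdh5 did not exceed 0.0930 FPKM. In the stable cells neither of 2 tested passed, at 17.0 to 17.1 against 17.1 to 18.5 FPKM.

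The 12 mast cell and basophil markers summed to 158 to 168 FPKM with PRDM16 against 2234 to 2252 with PRDM16mut under MLL-AF9, 10 of 11 lower, with Cma1, Mcpt4 and Tpsb2 changing by -8.22, -8.17 and -7.05. Cma1, Mcpt4 and Tpsab1 were tested there only because their PRDM16mut libraries reached the filter, which fixed their direction. The E2A-HLF cotransduction gave 169 to 170.4 against 125 to 129.9 FPKM, 5 higher and 1 lower among 8 tested. The calls of smallest p were Hdc (3.22), Cd200r3 (2.63) and Fcer1a (0.96). Hdc and Cd200r3 were tested there only through their PRDM16 libraries, and Cma1, the 1 lower, only through its PRDM16mut libraries. The 13 erythroid markers were 7 of 7 higher in the first, at 1055 to 1234 against 162 to 184 FPKM, with Car2, Rhag and Epor rising by 2.66, 2.34 and 0.97. In the second 2 were higher and 1 lower of 9, at 481 to 488 against 835 to 937 FPKM. Car2 changed there by -1.67, Car1 by 0.62 and Klf1 by 0.46. Car1 was tested there only through its PRDM16 libraries, so higher was the only direction open to it. The globin genes Hbb-b1 and Hbb-b2 held most of the erythroid sums in both cotransductions. No globin passed under E2A-HLF (limma, adjusted p from 0.165 to 0.921). Globin values also varied within groups, as with Hbb-b1 at 770 and 351 FPKM with PRDM16 under MLL-AF9. The 12 monocyte and macrophage markers were 7 higher and 2 lower among 10 tested in the first, at 5201 to 5263 against 2182 to 2195 FPKM, and 6 higher and 2 lower among 8 tested in the second, at 433 to 461 against 112 to 117. Ctss, Mpeg1 and Csf1r rose in the first by 2.14, 1.75 and 2.32, where Mrc1 and Ccr2 fell by 1.09 and 0.25. Lyz2, Emr1 and Ccr2 rose in the second by 3.23, 3.37 and 2.27, where Ctss and Mpeg1 fell by 1.53 and 0.70. Fcgr1, also counted as higher in the second, was tested there only through its PRDM16 libraries. Lyz2 held most of the sums in the first, and of those with PRDM16 in the second, at 294 and 270 FPKM there.

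Of the 8 stromal markers 0 were higher and 2 lower of 2 tested under MLL-AF9, Vcam1 (-1.88) and Acta2 (-1.41), at 0.791 to 0.917 against 6.43 to 6.70 FPKM. Vcam1 and Acta2 were tested there only because their PRDM16mut libraries reached the filter, so lower was the only direction open to them. Under E2A-HLF 1 of 1 was higher, Vcam1 at 188 and 197 against 3.77 and 3.83 FPKM. Marker sums in the stable cells were 21.9 to 23.4 against 23.3 to 23.4 FPKM for mast cells (0 of 4 called), 7.19 to 7.61 against 7.46 to 8.03 for erythroid cells (0 of 1), 249 to 255 against 217 to 218 for monocytes (2 of 9 higher) and 9.59 to 9.61 against 10.4 to 10.6 for stroma (0 of 2). Cd14 and Lyz2 (0.49 and 0.24) were the only genes called there in these 5 marker lists. The part of other cell types in the changes of the members was not tested.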

How the data were processed

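The authors deposited 3 tables of FPKM, 1 per experiment, with 1 column per library; per the submitters' processing notes, the tools were TopHat2 2.0.3, Bowtie2 2.0.0.7 and Cuffdiff, on mm9. The sources used here give no annotation, strand setting or scaling. FPKM totals lay between 570241 and 682607; without read counts depth is unknown, and intervals for counting error were not computed.

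Each table was fitted alone with limma 3.58.1 in R 4.3.3: log2(FPKM + 1), genes reaching FPKM 1 in 2 or more of 4 libraries, moderated variance with a trend, two-sided, with calls where the Benjamini-Hochberg adjusted p was under 0.05. The smallest p of an exact permutation test with 2 libraries a group is 0.333. The p-values see only how these libraries vary, and that variation may be technical. Differences of effects were contrasts of contrasts over all 12 libraries, over genes that passed in every table (9475, Pf4 among the members); for the other members, over genes that passed in at least 1 of the 2 tables compared, a choice made after seeing the data. Symbols that a spreadsheet had turned into dates were left out across tables. The fit was tested on simulated data. The members and lists were chosen with earlier results of these data known. Named from each list are up to 3 called genes of smallest p in each experiment, beside the members' relatives, neighbours and defining lineage genes picked by role after their values were seen. Some genes that this rule names are not reported here. Promoter windows are from RefSeq, with 7 of 9 members matched; they are of another build than the tables.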

Additional observations from a re-analysis of the deposited data

Results flagged for a closer look

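The effect of PRDM16 (log2 scale, PRDM16 minus PRDM16mut) differed between experiments by a test of the difference itself (limma over all 12 libraries, adjusted p under 0.05). For the MLL-AF9 cotransduction minus the E2A-HLF cotransduction this held for 8 of 8 members tested, where 73.1% of all genes passed. The differences were 5.42 for Selp, 1.96 for Gp9, 0.80 for Itgb3 and 0.65 for Vwf on the higher side. They were -1.28 for Itga2b, -1.22 for Gp1ba, -1.03 for F2r and -0.38 for Pf4 on the lower side. The largest adjusted p for any of these without 1 library was 0.0426, for Pf4.

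For the MLL-AF9 cotransduction minus the stable cells it held for 8 of 8, where 65.8% of all genes passed. The values were 4.08 for Selp, 1.75 for Gp9, 1.21 for F2r, 1.02 for Itgb3, 0.55 for Itga2b and 0.47 for Vwf, and -1.001 for Gp1ba and -1.37 for Pf4. For the E2A-HLF cotransduction minus the stable cells it held for 4 of 6, where 39.8% of all genes passed: 2.23 for F2r, 1.83 for Itga2b, -0.99 for Pf4 and -1.34 for Selp. Itgb3 (0.22, adjusted p = 0.0528) and Gp9 (-0.21, adjusted p = 0.458) did not pass there. Within the stable cells all members but Pf4 were under the filter, so these differences mostly restate the effect in the cotransduction. Gp1ba and Vwf were likewise under the filter under E2A-HLF, so their differences between the cotransductions mostly restate the effect under MLL-AF9. Selp and Itgb3 entered the comparison of the MLL-AF9 cotransduction with the stable cells only through PRDM16 libraries.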

How the results depend on the processing

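Within the experiments, 125 of 134 values of single members under another setting or without 1 library kept their direction and side of the threshold, and 9 kept the direction but lost the call; these were Gp9 under E2A-HLF and Pf4 in the stable cells. All 39 such values of the differences of effects on Pf4 kept both. The number of members called was 5 under MLL-AF9 at an FPKM of at least 5 and 1 in each cotransduction in 1 fit of all 12 libraries, because fewer members were tested. The number of members called in the stable cells was 0 without a filter and at an FPKM of at least 5, and 0 to 0 without 1 library. The number of members called under E2A-HLF was 5 to 6 without 1 library. The genes called in the stable cells, 673 in all, were 41 without a filter, 298 in 1 fit of all 12 libraries and 65 to 139 without 1 library (74 and 65 without PRDM16 replicates 1 and 2, 101 and 139 without PRDM16mut replicates 1 and 2); the cause was not tested. With genes that passed in at least 1 of 2 tables, the differences of effects called among members were 8, 8 and 4, in place of 1 each, at a pseudocount of 1 and of 0.1. The share of calls that were higher under E2A-HLF was 51.8%, 44.7% after quantile normalization; in the stable cells it was 66% and 50.7%. Replicate numbers are not said to pair the libraries. Deviations of same-numbered libraries correlated at 0.067, 0.289 and 0.319 under MLL-AF9, under E2A-HLF and in the stable cells. With the replicate block 7812, 4354 and 664 genes were called, and 8, 6 and 1 members. FPKM without counts gives no depth, so for values below 1 FPKM no detection limit can be stated.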
